A study of Rattus norvegicus with 6 samples.

Results

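The genes described here are 10 genes of fatty acid use in muscle and its regulators, namely Cpt1a, Cpt1b, Acadm, Acadl, Lpl, Pdk4, Ucp2, Ucp3, Ppara and Ppargc1a. They were chosen by Ensembl rat gene identifier, each identifier having been supplied together with its symbol, and all 10 have a row among the 26404 genes of the count files. RNA was sequenced from H9c2, a myoblast line from embryonic rat heart (spelled Hc92 in some labels), in 6 libraries. There were 2 libraries each of empty vector cells, tail domain mutants of BMPR2 and kinase domain mutants of BMPR2, with the empty vector as the control of both. BMPR2 is the type II receptor of the bone morphogenetic proteins, a membrane kinase with a long cytoplasmic tail. The design text calls the mutants cells that lack the tail or the kinase domain, while the titles call them domain mutants. The labels do not say how the mutants were made, whether a group was 1 clone, or whether replicates were separate cultures, so the p-values cover the spread of these libraries alone, which may be technical.

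Muscle cells take up fatty acids released from circulating lipid, activate them and burn them in mitochondria. Entry through the carnitine shuttle is the controlled step, and beta-oxidation then shortens the chain by successive rounds that start with an acyl-CoA dehydrogenase. PPAR alpha, a nuclear receptor that binds fatty acids and pairs with RXR, switches on many genes of this pathway together with its coactivator PGC-1 alpha, and in adult heart these genes are strongly expressed.

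Of the 10 genes 8 were tested, and none of these passed the test in any comparison, where between 0% and 0.0327% of all tested genes passed. The carnitine palmitoyltransferases and the acyl-CoA dehydrogenases ranged from 1.17-fold between the lowest and the highest library for Acadl to 2.10-fold for Cpt1b, and Lpl ranged 2.69-fold. By the SD of log2 CPM over the libraries, 3.29% of all tested genes varied less than Acadl, 28% less than Cpt1a, 54.3% less than Acadm and 69.8% less than Cpt1b. The share was 75.3% for Lpl, 93.2% for Ppara, 94.1% for Ucp3 and 95.5% for Ucp2. Ucp2 and Ppara ranged 9.49-fold and 8.96-fold over the 6 libraries, the lowest library holding 138 counts for Ucp2 but only 8 for Ppara. For Ucp2 the replicates of each mutant stood farther apart than the group means. Pdk4 and Ppargc1a had at most 7 counts in any library and were not tested, and Ucp3 had at most 15.

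Gene totals ran from 19116082 to 24936136 counts per library. Tail mutant replicate 2 stood apart, with 16.0% of its counts in its 10 leading genes, a share that was 19.9% to 22.1% elsewhere. Its Pearson's r of log2 CPM with the other tail mutant library was 0.947, while tail mutant replicate 1 and kinase mutant replicate 2 reached 0.982. Empty vector replicate 2 stood apart as well, with r of 0.925 to 0.941 with the 4 mutant libraries, against 0.942 to 0.968 for empty vector replicate 1. These r are across 12221 genes, which are not independent replicates. The files pair no identifier with a name, so neither Bmpr2 nor markers of muscle cells were looked up, and the labels were not checked against them. Values without 1 of these libraries are given beside the results that they moved most.

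Levels are CPM, the count of a gene relative to the library total, scaled by TMM, a factor that evens out library composition. Since no transcript lengths of the authors' annotation were used, levels are compared between libraries and never between genes. Groups are compared by log2 fold change and p-value from edgeR's quasi-likelihood test, with p-values adjusted by Benjamini-Hochberg (BH) over all 12221 genes tested. The test itself returns no standard error (SE). The SE was derived as the size of the log2 fold change over the square root of the test's F statistic. The 95% interval was built from this SE and the t distribution. Both are therefore approximate, above all at low counts.

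**Figure D1:**
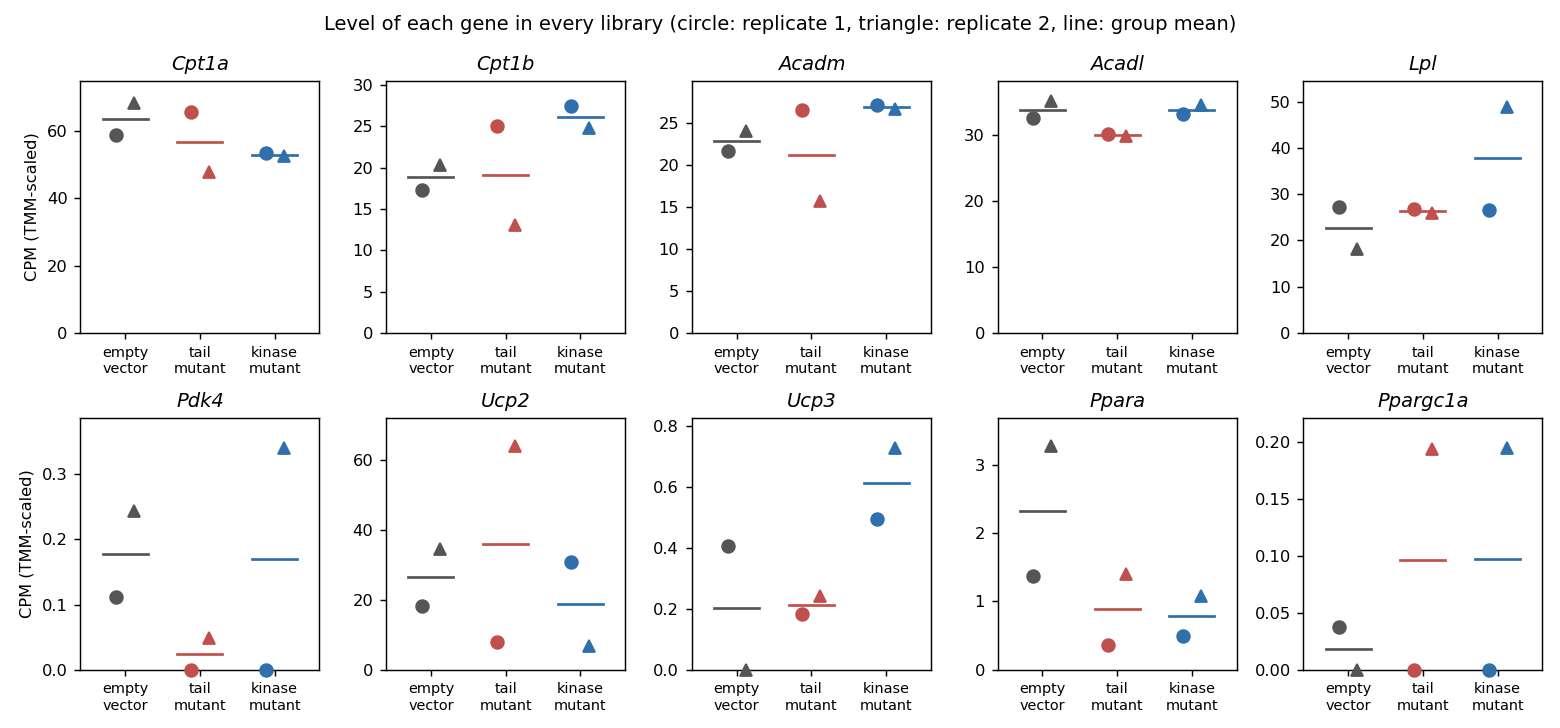
TMM-scaled CPM (vertical axes, linear from 0, a scale of its own for each gene) of the 10 genes in the 3 groups, with a circle for replicate 1, a triangle for replicate 2 and a line at the group mean. The Acadl libraries all lie between 29.8 and 35.0 CPM, while Ucp2 spans 6.72 to 63.8 CPM with a wide gap inside each mutant group.

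Lpl (ENSRNOG00000012181) encodes lipoprotein lipase, which frees fatty acids from circulating triglyceride. It stood at 27.3 and 18.2 CPM in the empty vector libraries, at 26.8 and 26.0 in the tail mutant and at 26.6 and 48.9 in the kinase mutant (replicates 1 and 2 in turn, as throughout). Kinase mutant replicate 2 was the high library and empty vector replicate 2 the low one, and the other 4 lay within 26.0 to 27.3 CPM. The kinase mutant libraries overlapped with empty vector, their lower one lying below empty vector replicate 1. The log2 fold change of the kinase mutant against empty vector was 0.73 ± 0.34 (SE), with an interval from -0.09 to 1.55 and a BH-adjusted p of 0.501 (edgeR). It became 0.22 without kinase mutant replicate 2 and 0.46 without empty vector replicate 2. In the tail mutant the difference from empty vector was 0.21 ± 0.34 (SE), with an interval from -0.60 to 1.03, and became -0.057 without empty vector replicate 2. In these bulk libraries, fewer cells expressing a gene and less RNA per cell cannot be told apart.

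Cpt1a (ENSRNOG00000014254) and Cpt1b (ENSRNOG00000010438) encode the carnitine palmitoyltransferases of the outer mitochondrial membrane, the liver and the muscle form of the enzyme that commits long-chain fatty acids to oxidation. Cpt1a stood at 58.7 and 68.3 CPM in empty vector, at 65.7 and 47.8 in the tail mutant and at 53.3 and 52.6 in the kinase mutant. Both kinase mutant libraries were below both empty vector libraries, while the tail mutant libraries lay inside and below the empty vector range. Empty vector averaged 63.5 ± 6.79 CPM and the kinase mutant 52.9 ± 0.524 (SD, n = 2 each), a log2 fold change of -0.26 ± 0.21 (SE) that did not pass (edgeR, BH-adjusted p of 0.675). Its interval ran from -0.76 to 0.24. In the tail mutant the log2 fold change was -0.16 ± 0.21 (SE), and it became 0.053 without tail mutant replicate 2.

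Cpt1b stood at 17.4 and 20.3 CPM in empty vector, at 25.1 and 13.1 in the tail mutant and at 27.5 and 24.8 in the kinase mutant. Both kinase mutant libraries were above both empty vector libraries. The tail mutant replicates lay on either side of the empty vector libraries, so that the tail mutant mean of 19.1 ± 8.48 CPM (SD, n = 2) was almost level with the 18.8 ± 2.12 CPM of empty vector (SD, n = 2). The kinase mutant against empty vector gave 0.47 ± 0.32 (SE) on the log2 scale, with an interval from -0.29 to 1.24 and a BH-adjusted p of 0.625 (edgeR). For the tail mutant the value of 0.02 ± 0.32 (SE) became 0.42 without tail mutant replicate 2 and -0.53 without tail mutant replicate 1. Thus the 2 forms of the enzyme lay on opposite sides of empty vector in the kinase mutant, a pattern for which neither difference passed.

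Acadm (ENSRNOG00000009845) encodes the medium-chain acyl-CoA dehydrogenase. It stood at 21.6 and 24.1 CPM in empty vector, at 26.6 and 15.7 in the tail mutant and at 27.2 and 26.6 in the kinase mutant. The pattern was like that of Cpt1b, with both kinase mutant libraries above empty vector and the tail mutant replicates on either side of it. The kinase mutant differed from empty vector by 0.24 ± 0.27 (SE) on the log2 scale, with an interval from -0.41 to 0.88 and a BH-adjusted p of 0.772 (edgeR). The tail mutant lay at -0.11 ± 0.27 (SE), which became 0.22 without tail mutant replicate 2 and -0.55 without tail mutant replicate 1.

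Acadl (ENSRNOG00000012966) encodes the long-chain acyl-CoA dehydrogenase and varied least. It stood at 32.5 and 35.0 CPM in empty vector, at 30.1 and 29.8 in the tail mutant and at 33.2 and 34.4 in the kinase mutant. Both tail mutant libraries lay below the other 4. The SD of its log2 CPM over the 6 libraries was 0.097, and 3.29% of the tested genes had a smaller one. The tail mutant differed from empty vector by -0.17 ± 0.16 (SE) on the log2 scale, with an interval from -0.55 to 0.21 and a BH-adjusted p of 0.804 (edgeR). For the kinase mutant the value was 0.0017 ± 0.16 (SE), with an interval from -0.38 to 0.38, the tightest of the 8 genes tested in that comparison.

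All 4 of these mitochondrial genes had their lowest level in tail mutant replicate 2. That library held the lowest level of 26.0% of all tested genes and the highest level of 26.0%, each more than any other library. Relative to its own mean over the 6 libraries, in log2 CPM, Cpt1b lay at -0.66 there, Acadm at -0.56, Cpt1a at -0.26 and Acadl at -0.12. Acadl was almost level with this in tail mutant replicate 1, at -0.11. Ucp2 had its highest level in the same library, at 1.66 above its mean. Whether the composition of that library plays a part in these values was not tested.

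**Figure D2:**
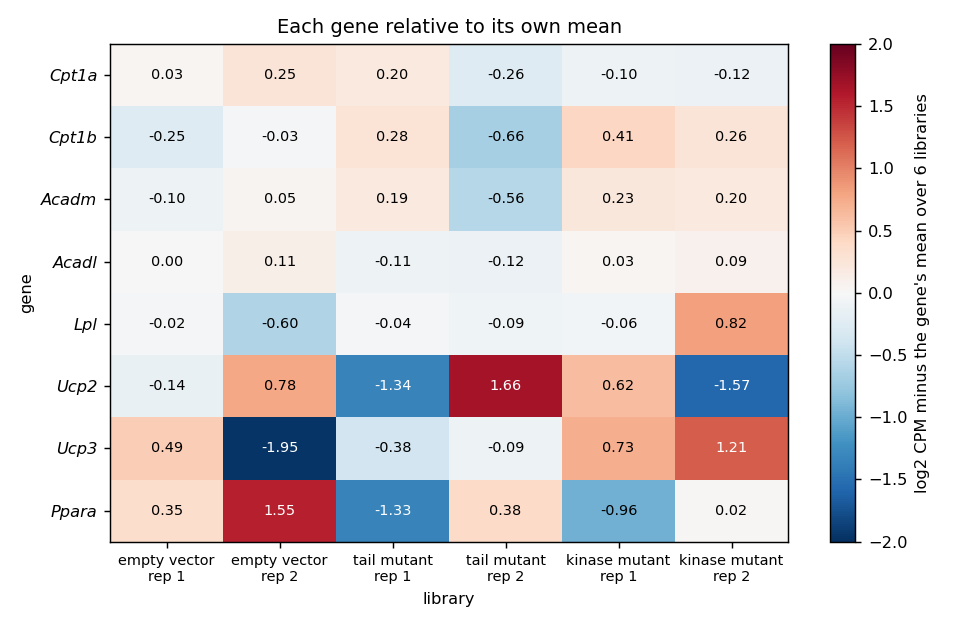
Log2 CPM of the 8 tested genes (rows) in the 6 libraries (columns), each minus the gene's own mean over the libraries, with red above and blue below it. Cpt1b and Acadm are lowest in tail mutant replicate 2, at -0.66 and -0.56, and Ucp2 changes sign between the replicates of every group.

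Pdk4 (ENSRNOG00000009565) encodes pyruvate dehydrogenase kinase 4, which shuts pyruvate out of the citric acid cycle when fat is burned and is a well-known PPAR target. It had 3 and 5 counts in empty vector, 0 and 1 in the tail mutant and 0 and 7 in the kinase mutant. The exact 95% Poisson intervals of these counts, which cover counting error only, overlapped between all 6 libraries, for example from 1.62 to 11.7 for the 5 counts of empty vector replicate 2 and from 0.0253 to 5.57 for the 1 count of tail mutant replicate 2. The exact interval of a count of 0 reaches 3.69 counts. The usual limit for a count of 0, a bound on the upper side alone, is 3 counts, or between 0.111 and 0.149 CPM per library. Both tail mutant libraries lay below both empty vector libraries, at counts too low to pass the filter. A difference in Pdk4 was therefore not tested in the main fit. The fit with no filter, which held all 10 members, called 0 of them in any comparison.

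Ucp2 (ENSRNOG00000017854) and Ucp3 (ENSRNOG00000017716) encode mitochondrial carriers of the uncoupling protein family. Ucp2 is found in many tissues, Ucp3 mainly in skeletal muscle and brown fat, and the levels of Ucp3 are known to follow fatty acid supply. The genes are neighbours, with 0 genes between them in the RefSeq gene table of the GRCr8 assembly. Their promoters are shown because Ucp2 and Ucp3 had the widest spread over the libraries among the 8 tested members, by the SD of log2 CPM. The windows run from 250 bases before to 50 after the RefSeq start on GRCr8, both on the plus strand, at chr1:164251123-164251422 for Ucp2 and chr1:164227660-164227959 for Ucp3. Capitals mark AGGTCA, the core site of nuclear receptors such as PPAR alpha with RXR.
Ucp2: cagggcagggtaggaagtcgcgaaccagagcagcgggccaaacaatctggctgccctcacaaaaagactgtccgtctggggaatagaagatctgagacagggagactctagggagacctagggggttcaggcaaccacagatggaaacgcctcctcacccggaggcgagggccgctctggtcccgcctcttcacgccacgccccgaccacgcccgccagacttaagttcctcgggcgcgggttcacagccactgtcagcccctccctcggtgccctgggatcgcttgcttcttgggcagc
Ucp3: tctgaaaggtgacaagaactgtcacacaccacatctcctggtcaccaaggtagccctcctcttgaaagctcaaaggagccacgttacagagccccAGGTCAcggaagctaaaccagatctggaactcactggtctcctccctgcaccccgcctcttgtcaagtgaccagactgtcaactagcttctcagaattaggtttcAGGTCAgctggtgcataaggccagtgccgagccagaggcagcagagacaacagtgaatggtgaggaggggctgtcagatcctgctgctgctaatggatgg
The Ucp3 window holds AGGTCA at 2 places, with first bases 155 and 50 bases before the start, and the Ucp2 window holds it at 0. AGGTCA was searched on both strands and is found in 16.2% of all 33469 RefSeq windows of this length. Its direct repeat with 1 spacer base, DR1, the form that PPAR alpha binds with RXR, is found in 0.0538% of them and in 0 of the 7 windows of these genes that the table holds. The exact repeat is so rare that its absence from 7 windows cannot tell these genes from others. A match, or the lack of 1, is a description of the letters, not of binding.

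Ucp2 stood at 18.2 and 34.5 CPM in empty vector, at 7.89 and 63.8 in the tail mutant and at 30.9 and 6.72 in the kinase mutant, from 138 to 1321 counts per library. The high and low libraries did not follow the groups. Tail mutant replicate 1 and kinase mutant replicate 2 were the lowest, tail mutant replicate 2 was the highest, and both empty vector libraries lay between them. The replicates differed 8.09-fold in the tail mutant and 4.59-fold in the kinase mutant, against 1.89-fold in empty vector. On the log2 scale these gaps, of 3.001, 2.18 and 0.92, exceeded those of 98.7%, 98.1% and 92.6% of the tested genes in the same group. The tail mutant against empty vector gave 0.44 ± 1.05 (SE), with an interval from -2.13 to 3.02 and a BH-adjusted p of 0.931 (edgeR). It became -1.74 without tail mutant replicate 2 and 1.27 without tail mutant replicate 1, so that 1 library set the direction. The kinase mutant against empty vector gave -0.49 ± 1.06 (SE), which became 0.23 without kinase mutant replicate 2 and 0.041 without empty vector replicate 2. The direct comparison gave 0.93 ± 1.06 (SE) higher in the tail mutant, with an interval from -1.67 to 3.53, and became -1.25 without tail mutant replicate 2.

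**Figure D3:**
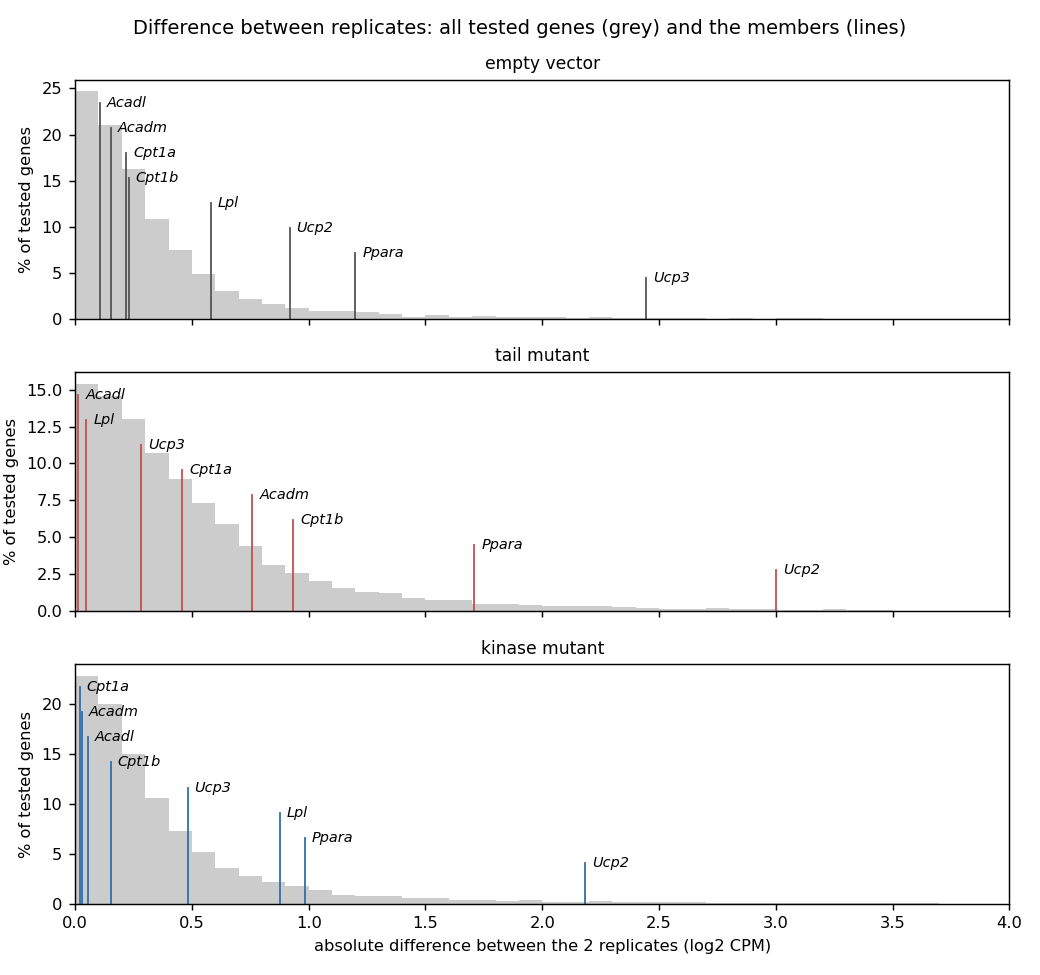
Absolute difference between the 2 replicates of a group in log2 CPM (horizontal axis), as the percentage of the 12221 tested genes in bins of 0.1 (grey bars) and as labelled lines for the 8 tested members, whose heights carry no value. Ucp2 lies in the far tail of the tail mutant panel at 3.001 and of the kinase mutant panel at 2.18, while Acadl stays at or below 0.11 in all 3 panels.

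Ucp3 had 11 and 0 counts in empty vector, 4 and 5 in the tail mutant and 10 and 15 in the kinase mutant, which is 0.408, 0, 0.182, 0.242, 0.497 and 0.731 CPM. Both kinase mutant libraries were above all others, by little in the case of replicate 1 and empty vector replicate 1. Ucp3 passed the filter on low counts only through the kinase mutant libraries, so its place among the higher genes of that group was partly set by the filter. The kinase mutant differed from empty vector by a fitted log2 value of 1.49 ± 1.15 (SE), with an interval from -1.30 to 4.28 and a BH-adjusted p of 0.666 (edgeR). Without empty vector replicate 2, the library with 0 counts, it became 0.58. Without empty vector replicate 1 it became 6.69, a value fitted against 0 counts that depends on the prior count.

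Ppara (ENSRNOG00000021463) encodes PPAR alpha itself. Its promoter is shown as that of the regulator of the set, a window of the same kind at chr7:118712357-118712656 on the plus strand of GRCr8, with GGGCGG, the box bound by Sp1 family factors, in capitals.
Ppara: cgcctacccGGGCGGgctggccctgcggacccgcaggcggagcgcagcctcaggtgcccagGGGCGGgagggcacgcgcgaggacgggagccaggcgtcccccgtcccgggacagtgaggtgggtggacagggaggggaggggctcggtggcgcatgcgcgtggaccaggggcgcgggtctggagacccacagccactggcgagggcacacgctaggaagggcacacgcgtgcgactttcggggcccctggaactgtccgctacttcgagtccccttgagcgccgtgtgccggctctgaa
The window holds GGGCGG at 2 places, 241 and 189 bases before the start, and 73.7% of its bases are G or C. GGGCGG, searched on both strands, is found in 33.1% of all RefSeq windows of this length. The window holds AGGTCA at 0 places. The Pdk4 window, not shown, also holds GGGCGG at 2 places.

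Ppara had 37 and 67 counts in empty vector, 8 and 29 in the tail mutant and 10 and 22 in the kinase mutant, or 1.37 and 3.27, 0.365 and 1.40, and 0.497 and 1.07 CPM. Empty vector replicate 2 was the highest library by far. Of the 4 mutant libraries 3 lay below both empty vector libraries, and tail mutant replicate 2 lay just above empty vector replicate 1. Empty vector averaged 2.32 ± 1.34 CPM, the tail mutant 0.883 ± 0.733 and the kinase mutant 0.785 ± 0.406 (SD, n = 2 each). Both mutants together against empty vector gave -1.47 ± 0.67 (SE) on the log2 scale, with an interval from -3.08 to 0.15. This was the smallest p of the 8 genes in that comparison, and it did not pass (edgeR, BH-adjusted p of 0.481 and unadjusted p of 0.0682). The difference kept its sign in all 11 alternative analyses of that comparison, ranging from -2.10 without tail mutant replicate 2 to -0.73 without empty vector replicate 2. These analyses reuse the same libraries and are not independent of each other, so their number adds no support. Each alone, the tail mutant lay at -1.39 ± 0.81 (SE) and the kinase mutant at -1.55 ± 0.82 (SE), with BH-adjusted p-values of 0.700 and 0.536 (edgeR). Leaving out 1 library moved the first from -2.64 (without tail mutant replicate 2) to -0.65 (without empty vector replicate 2). It moved the second from -2.20 (without kinase mutant replicate 2) to -0.80 (without empty vector replicate 2). Both comparisons use the same empty vector libraries. Between the mutants the difference was 0.16 ± 0.83 (SE), with an interval from -1.84 to 2.17.

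Ppargc1a (ENSRNOG00000004473) encodes PGC-1 alpha, the coactivator that raises mitochondrial number and fat oxidation in muscle. It had 1 and 0 counts in empty vector, 0 and 4 in the tail mutant and 0 and 4 in the kinase mutant. All 6 libraries lay at or near the limit that a count of 0 allows, and no difference was tested in the main fit. Its promoter window holds TGACGTCA, the cyclic AMP response element, with its first base 181 bases before the start, as does that of Acadm 103 bases before the start. This palindrome is found in 1.83% of all RefSeq windows of this length. Of the 7 promoter windows available for these genes, only those of Acadm and Ppargc1a hold it, and they are shown for that reason. The search for this element had not been planned, and a match describes the letters only. Acadm lies at chr2:245542815-245543114 on the minus strand and Ppargc1a at chr14:63634058-63634357 on the plus strand of GRCr8, with TGACGTCA and, in Acadm, GGGCGG at 3 places (either strand) in capitals.
Acadm: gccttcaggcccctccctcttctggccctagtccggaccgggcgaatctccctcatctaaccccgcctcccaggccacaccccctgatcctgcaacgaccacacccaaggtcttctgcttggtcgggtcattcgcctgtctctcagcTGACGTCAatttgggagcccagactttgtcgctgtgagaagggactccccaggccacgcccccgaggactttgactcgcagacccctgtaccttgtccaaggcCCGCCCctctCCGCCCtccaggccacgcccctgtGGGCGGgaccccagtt
Ppargc1a: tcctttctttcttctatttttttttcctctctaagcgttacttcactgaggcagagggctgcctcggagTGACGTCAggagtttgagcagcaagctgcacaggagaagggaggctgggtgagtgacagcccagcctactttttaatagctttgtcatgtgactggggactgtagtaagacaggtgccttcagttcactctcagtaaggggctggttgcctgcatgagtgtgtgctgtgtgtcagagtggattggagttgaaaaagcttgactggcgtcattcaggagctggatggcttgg

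**Figure D4:**
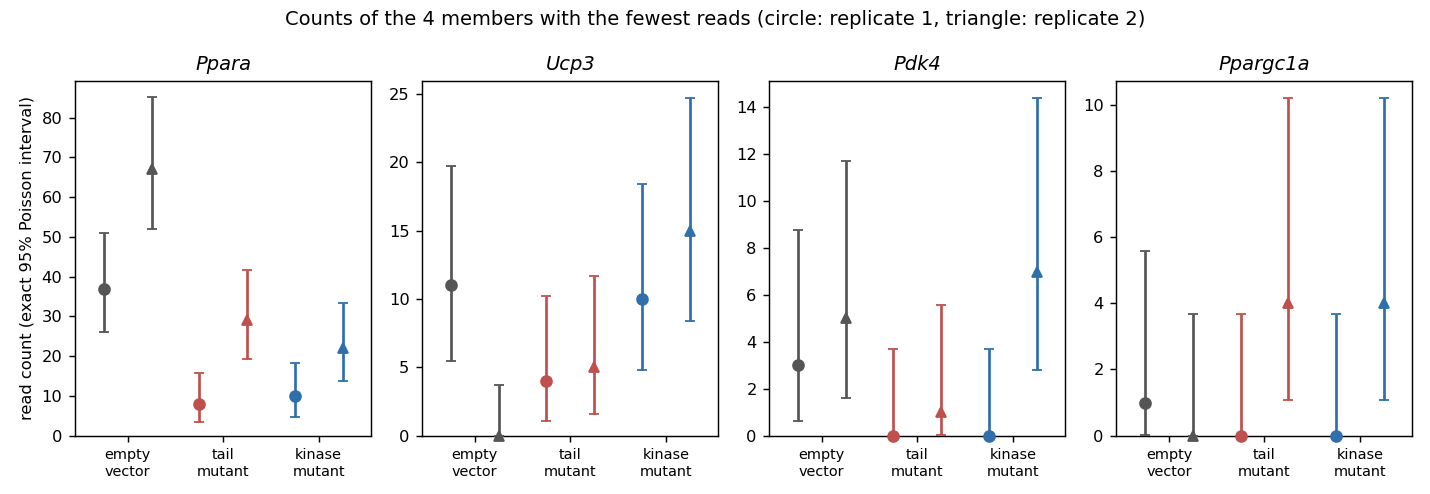
Read counts of Ppara, Ucp3, Pdk4 and Ppargc1a (vertical axes, linear from 0) in each library, with exact 95% Poisson intervals, circles for replicate 1 and triangles for replicate 2. For Ppara the interval of empty vector replicate 1, from 26.1 to 51.0 counts, overlaps those of tail mutant replicate 2 and kinase mutant replicate 2, that of empty vector replicate 2, from 51.9 to 85.1, overlaps none, and those of Pdk4 overlap throughout. The intervals cover counting error only, not the spread between libraries.

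What the tail domain mutant does to these genes was asked by setting it against empty vector. Acadl was lower in each tail mutant library than in either empty vector one, and no other tested member was free of overlap. Thus 1 of 8 tested members was lower without overlap and 0 were higher, where 19.7% of all tested genes were lower and 18.1% were higher. EdgeR called 0 of the 8 at an adjusted p below 0.05, and 0 at an unadjusted p below 0.05, where 0.00818% and 8.56% of all tested genes were called. DESeq2 and limma-voom called 0 of the 8 as well, where they called 2.03% and 0% of all tested genes. The median log2 fold change of the 8 was -0.07, against 0.01 over all tested genes.

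In the kinase mutant against empty vector, Cpt1b, Acadm and Ucp3 were higher in each kinase mutant library than in either empty vector one, and Cpt1a and Ppara were lower. These are 3 and 2 of the 8 tested members, beside 24.2% of all tested genes that were higher and 26.4% that were lower without overlap, and Ucp3 owes its place to the filter in part. EdgeR called 0 of the 8 at an adjusted p below 0.05 and 0 at an unadjusted p below 0.05, where 0.00818% and 10.8% of all tested genes were called. DESeq2 and limma-voom called 0 of the 8, beside 2.95% and 0% of all tested genes. The smallest unadjusted p was that of Lpl, at 0.0723 in edgeR. The median log2 fold change of the 8 was 0.12, against -0.01 over all tested genes. This median includes Ucp3, kept only through the kinase mutant libraries, and is therefore partly set by the filter. No median without Ucp3 was taken.

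**Figure D5:**
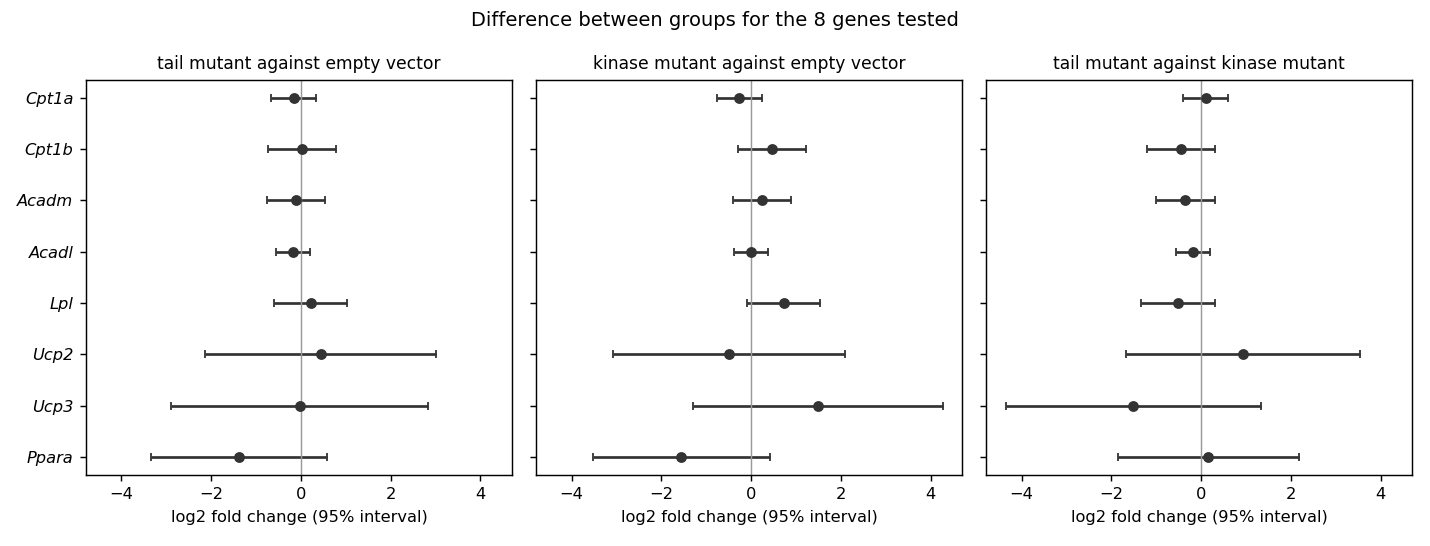
Log2 fold change (points) with its 95% interval (bars) for the 8 tested genes in 3 comparisons, derived from edgeR's quasi-likelihood fit. Every interval crosses 0, and those of Ucp2, Ucp3 and Ppara are the widest.

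The direct comparison of the mutants asks whether the tail domain and the kinase domain mutant differ. Acadm, Acadl and Ucp3 were lower in both tail mutant libraries than in both kinase mutant libraries, and no tested member was higher without overlap. These are 3 of the 8, beside 14.8% of all tested genes that were lower and 15.2% that were higher without overlap. The place of Ucp3 here was partly set by the filter too, and that of Acadm rests on tail mutant replicate 1 and kinase mutant replicate 2, which were level at 26.6 CPM to 3 digits. Acadm stood at -0.35 ± 0.27 (SE) on the log2 scale, which became -0.017 without tail mutant replicate 2. Acadl stood at -0.17 ± 0.16 (SE), with an interval from -0.56 to 0.21. EdgeR called 0 of the 8, beside 0% of all tested genes, and 0 of the 8 at an unadjusted p below 0.05, beside 3.67% of all tested genes. DESeq2 and limma-voom called 0 of the 8, beside 0.0982% and 0% of all tested genes. The median log2 fold change of the 8 was -0.26, against 0.01 over all tested genes. It too includes Ucp3 and is partly set by the filter.

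With both mutants combined against empty vector, 0 of the 8 were higher and 0 were lower without overlap, beside 11.3% and 13% of all tested genes. EdgeR called 0 of the 8, beside 0.0327% of all tested genes, and 0 at an unadjusted p below 0.05, beside 11.4%. DESeq2 and limma-voom called 0 of the 8, beside 3.44% and 0.00818% of all tested genes. After Ppara, the largest size of change was that of Ucp3 at 0.73 ± 1.06 (SE) and then that of Lpl at 0.47 ± 0.30 (SE), both higher in the mutants. The value of Ucp3, kept only through the kinase mutant libraries, became -0.18 without empty vector replicate 2 and 5.93 without empty vector replicate 1, the latter fitted against 0 counts. That of Lpl became 0.20 and 0.79 without the same libraries. The remaining 5 genes lay between -0.21 for Cpt1a and 0.25 for Cpt1b on the log2 scale. The intervals set what these data can tell: for Acadl the interval ran from -0.42 to 0.24, and for Ucp2 from -2.25 to 2.20.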

How the data were processed

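Counts per Ensembl rat gene were deposited by the authors as raw read counts, 1 file per library. The submitters' processing notes name Trimmomatic 0.33, STAR 2.4.0, HTSeq 0.6.1p1 and the build Rnor_5.0. Strand setting and annotation release were not given in the labels or files, so antisense reads could not be separated. The 5 rows that name no gene held 43.1% to 48.4% of each file's total (27.3% to 31.5% not uniquely aligned) and were left out. Reads shared by near-identical genes are thereby lost.

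Analysis used R 4.3.3 with edgeR 4.0.16. filterByExpr (minimum count 10, minimum total 15) kept 12221 genes, 8 of the 10 members among them. After TMM scaling, a quasi-likelihood model with no term but group was fitted over all 6 libraries, with 3 residual degrees of freedom, and calls were made below 0.05 after Benjamini-Hochberg adjustment. Alternatives were DESeq2 1.42.0, limma-voom (limma 3.58.1), DESeq2 size factors in edgeR, no filter, a replicate block, only the libraries compared, and each library left out. The fits were tested on simulated data. Replicates differed beyond sampling noise (mean chi-square of at least 59.2 per gene), so no 2 libraries were treated as 1. Intervals of counts cover counting error only.

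The rule for named genes was to name all 10 members, and members and lists were chosen with earlier results of these data known. Wider lists of the pathway, regulators and cell type markers had been set by symbol but were not used, since the RefSeq gene table (GRCr8) lists Ensembl identifiers for 0 of 47357 genes, and for the same reason no similarly behaving gene was named. Promoter windows came from RefSeq (GRCr8), with 7 of 10 members matched by symbol. Motifs were searched on both strands: the nuclear receptor core site and its DR1 repeat, the cyclic AMP response element, the Sp1 box and a TATA box. Only the core site and its repeat had been planned. The TATA box, TATAAA, is found in 14.2% of all RefSeq windows and in 0 of the 7 windows of these genes.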

Additional observations from a re-analysis of the deposited data

How the results depend on the processing

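The number of members called stayed at 0 in each comparison under every alternative for which calls of members were counted. Counts over all genes moved. For the tail mutant against empty vector the 1 gene called became 248 with DESeq2, 0 with limma-voom or only the 4 libraries compared, 9 with no filter, 2 with the replicate block, and 0 to 20 with a library left out. For the kinase mutant against empty vector the 1 gene became 361 with DESeq2, 0 with limma-voom or only the 4 libraries compared, 2 with no filter, 2 with the replicate block, and 0 to 2 with a library left out. Between the mutants 0 became 12 with DESeq2. For both mutants against empty vector 4 became 421 with DESeq2, 1 with limma-voom, 49 with no filter, 2 with the replicate block, and 0 to 12 with a library left out. The cause of these moves was not tested.

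Of 375 values of log2 fold change of members under the alternatives, 343 kept their direction and 32 changed sign, none of them a call. Leaving out each library in turn gave these ranges where a sign changed. In the tail mutant against empty vector they ran from -0.41 to 0.053 for Cpt1a, -0.53 to 0.42 for Cpt1b, -0.55 to 0.22 for Acadm, -0.057 to 0.54 for Lpl, -1.74 to 1.27 for Ucp2 and -0.94 to 5.18 for Ucp3. The last value is fitted against a single library with 0 counts and depends on the prior count. In the kinase mutant against empty vector they ran from -0.050 to 0.053 for Acadl and -1.97 to 0.23 for Ucp2. Between the mutants they ran from -0.15 to 0.31 for Cpt1a, -1.25 to 2.41 for Ucp2 and -1.09 to 0.83 for Ppara. For both mutants together they ran from -0.028 to 0.44 for Cpt1b, -0.16 to 0.23 for Acadm, -1.11 to 0.50 for Ucp2 and -0.18 to 5.93 for Ucp3. Other settings also changed signs. Limma-voom gave -0.043 for Cpt1b, -0.16 for Ucp2 (0.44 in edgeR) and 1.04 for Ucp3 (-0.025 in edgeR) in the tail mutant against empty vector, and -0.048 for Ppara between the mutants. DESeq2 gave 0.035 for Ucp3 in the tail mutant against empty vector, and no filter gave -0.0044 for Acadl in the kinase mutant against empty vector. The replicate block gave -0.034 for Cpt1b and 0.16 for Ucp3 in the tail mutant against empty vector, and 0.037 for Ucp2 in both mutants together.

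The labels do not say whether libraries of the same number share anything beyond that number. Their deviations correlated across genes at 0.124 between empty vector and tail mutant, -0.131 between empty vector and kinase mutant and -0.353 between the mutants. These values cannot show whether same-numbered libraries were handled together. A crossed block over the 4 libraries compared, added after the data were examined, called 1 gene in the kinase mutant against empty vector and 0 between the mutants, against 16 and 0 with the uncrossed block. The crossed block called 0 members in either comparison, and the replicate block over all 6 libraries called 0 in each. For the uncrossed block over 4 libraries, calls of members were not counted. Ucp3 had no value for the tail mutant against empty vector in the fit of the 4 libraries compared, where it did not pass the filter. Ucp3, Pdk4 and Ppargc1a had at most 15 counts in any library, and the empty vector replicates of Ucp3, at 11 and 0 counts, differed beyond counting error as well.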
